A study of Mus musculus with 35 samples.

Results

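Cathepsins are proteases that work mainly in the acidic lumen of lysosomes and endosomes. The 9 cathepsin genes described here are Ctsb, Ctsc, Ctsd, Ctse, Ctsh, Ctsk, Ctsl, Ctss and Ctsz, and they were measured in mouse tracheas before and after transplantation. They are a fixed list of gene names, drawn up with earlier results of these data known, and were found through probe sets annotated to exactly 1 of these genes. That gave 15 probe sets, of the 22626 non-control probe sets and 12393 named genes of the table. Ctsb had 4 probe sets, Ctsz had 3, Ctse had 2 and each other gene had 1, while Ctsa, Ctsf and further cathepsin-type genes of the array are not in the list and are given at the end. In addition, 0 further probe sets named a cathepsin of this set together with another gene. For a gene with several probe sets, the one with the highest average over the 35 arrays stands for the gene, and the others are given where they differ.

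The arrays held RNA of tracheal tissue in 7 groups of 5 arrays. Allograft tracheas had been in MHC-incompatible recipients for 4, 14 or 25 days, so donor and recipient differed in the major histocompatibility complex. Isograft tracheas had been in MHC-compatible recipients for the same times. Native tracheas were not transplanted and served as the starting point. The labels used here give no strain, age or sex, and do not say whether each array was 1 animal or a pool, so the p-values measure the spread between arrays. A graft holds donor tissue and any recipient cells that entered it, and bulk RNA does not separate the 2 sources.

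In background terms, cathepsins B, H, K, L, S and Z (the last also called X) and cathepsin C are cysteine proteases, whereas cathepsins D and E are aspartic proteases. Cathepsin S, and in the thymus cathepsin L, cut the invariant chain that blocks the peptide groove of MHC class II molecules. Cathepsin C removes dipeptides from the proforms of granule proteases such as granzymes, and so activates them. Cathepsin K degrades collagen and is best known from osteoclasts, the bone-resorbing cells. Cathepsins B, D, H and Z are found in lysosomes of many cell types and are plentiful in macrophages, and cathepsin E is found in antigen-presenting cells and in epithelia of the digestive tract.

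RefSeq promoter windows (GRCm38.p6, 300 bases, 250 before to 50 after the annotated start) were matched for 6 of the 9 genes. The 4 windows below are shown because their genes took 4 different courses in the grafts. Ctss was higher in every graft group than in native trachea, Ctsc was kept high in allografts and lower in later isografts, Ctsd differed little, and Ctsk was called higher from day 14 on. They lie on the plus strand at chr3:95526536-95526835 for Ctss, on the plus strand at chr7:88277835-88278134 for Ctsc, on the minus strand at chr7:142387778-142388077 for Ctsd and on the plus strand at chr3:95498960-95499259 for Ctsk, each printed 5′ to 3′ along its gene. Capitals mark matches, on either strand, to CACGTG (the E-box core of the lysosomal CLEAR element), TTCNNNGAA (a GAS-type motif), an ISRE-type motif (GAAA, any 2 bases, GAAA) and GAGGAAGT (a PU.1-type motif).
Ctss: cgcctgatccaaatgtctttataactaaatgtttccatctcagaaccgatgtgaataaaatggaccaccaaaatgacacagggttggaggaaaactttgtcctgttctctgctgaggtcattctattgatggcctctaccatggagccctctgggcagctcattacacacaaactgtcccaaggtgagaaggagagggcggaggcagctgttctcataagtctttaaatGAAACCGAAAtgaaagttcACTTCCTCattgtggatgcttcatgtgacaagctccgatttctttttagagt
Ctsc: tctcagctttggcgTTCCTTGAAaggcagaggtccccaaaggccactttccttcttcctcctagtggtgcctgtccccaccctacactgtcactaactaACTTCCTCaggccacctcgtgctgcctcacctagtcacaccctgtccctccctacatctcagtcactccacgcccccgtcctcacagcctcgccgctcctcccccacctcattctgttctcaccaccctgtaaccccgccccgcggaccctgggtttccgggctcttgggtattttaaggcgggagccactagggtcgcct
Ctsd: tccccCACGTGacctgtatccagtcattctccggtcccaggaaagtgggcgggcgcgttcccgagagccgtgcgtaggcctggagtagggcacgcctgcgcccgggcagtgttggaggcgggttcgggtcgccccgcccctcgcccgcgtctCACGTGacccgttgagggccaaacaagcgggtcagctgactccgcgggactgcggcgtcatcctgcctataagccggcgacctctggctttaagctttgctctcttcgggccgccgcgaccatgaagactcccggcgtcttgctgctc
Ctsk: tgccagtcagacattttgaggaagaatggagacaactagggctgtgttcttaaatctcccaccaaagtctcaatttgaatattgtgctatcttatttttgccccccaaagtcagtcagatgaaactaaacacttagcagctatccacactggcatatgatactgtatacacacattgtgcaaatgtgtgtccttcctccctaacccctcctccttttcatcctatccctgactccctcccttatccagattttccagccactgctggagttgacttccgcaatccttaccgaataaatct

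The Ctss window held the ISRE-type motif, which runs from position -21 relative to the start, and the PU.1-type motif, which runs from position -2. In the Ctsc window lay the GAS-type motif from position -236 and the PU.1-type motif from position -151. The Ctsd window held the E-box core at positions -245 and -98, and the Ctsk window held none of the 4 motifs. Among the windows not printed, Ctsl held 1 E-box core and Ctsz held none of the 4. Of all 32851 promoter windows of that length, 7.15% held CACGTG, 8.3% TTCNNNGAA, 3.44% the ISRE-type motif and 3.2% GAGGAAGT on either strand. The GC box GGGCGG, left in lower case, was present in 35.7% of all windows and in those of Ctss, Ctsc, Ctsd and Ctsz. A match is a run of letters and does not show that a factor binds there.

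All values are log2 intensities, and levels are compared between groups for 1 probe set, never between genes. Array medians lay between 5.07 and 5.3, all 9 genes and all 15 probe sets passed the filter (at least 5 in at least 5 arrays), and the number of arrays limits the precision. Labelled tissue was checked against marker lists: in native trachea the mean level of 7 secretory epithelium markers was 13.23 to 13.62 per array, that of 5 cartilage markers 9.47 to 11.25 and that of 5 ciliated cell markers 5.34 to 7.17. Markers of neighbouring tissue were present too, with 5 skeletal muscle markers at 8.57 to 12.88 and 3 thyroid markers at 7.62 to 8.49 in native trachea. Replicate 5 of the day 25 isografts and replicate 5 of the native tracheas stood apart: the median correlation with the other arrays of its group was 0.854 for the first and 0.894 for the second. Calls that were lost without them are named below, and some other results are given without them as well. Called below means an adjusted p under 0.05 (Benjamini-Hochberg, over all probe sets kept) in limma's fit of all 35 arrays.

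**Figure D1:**
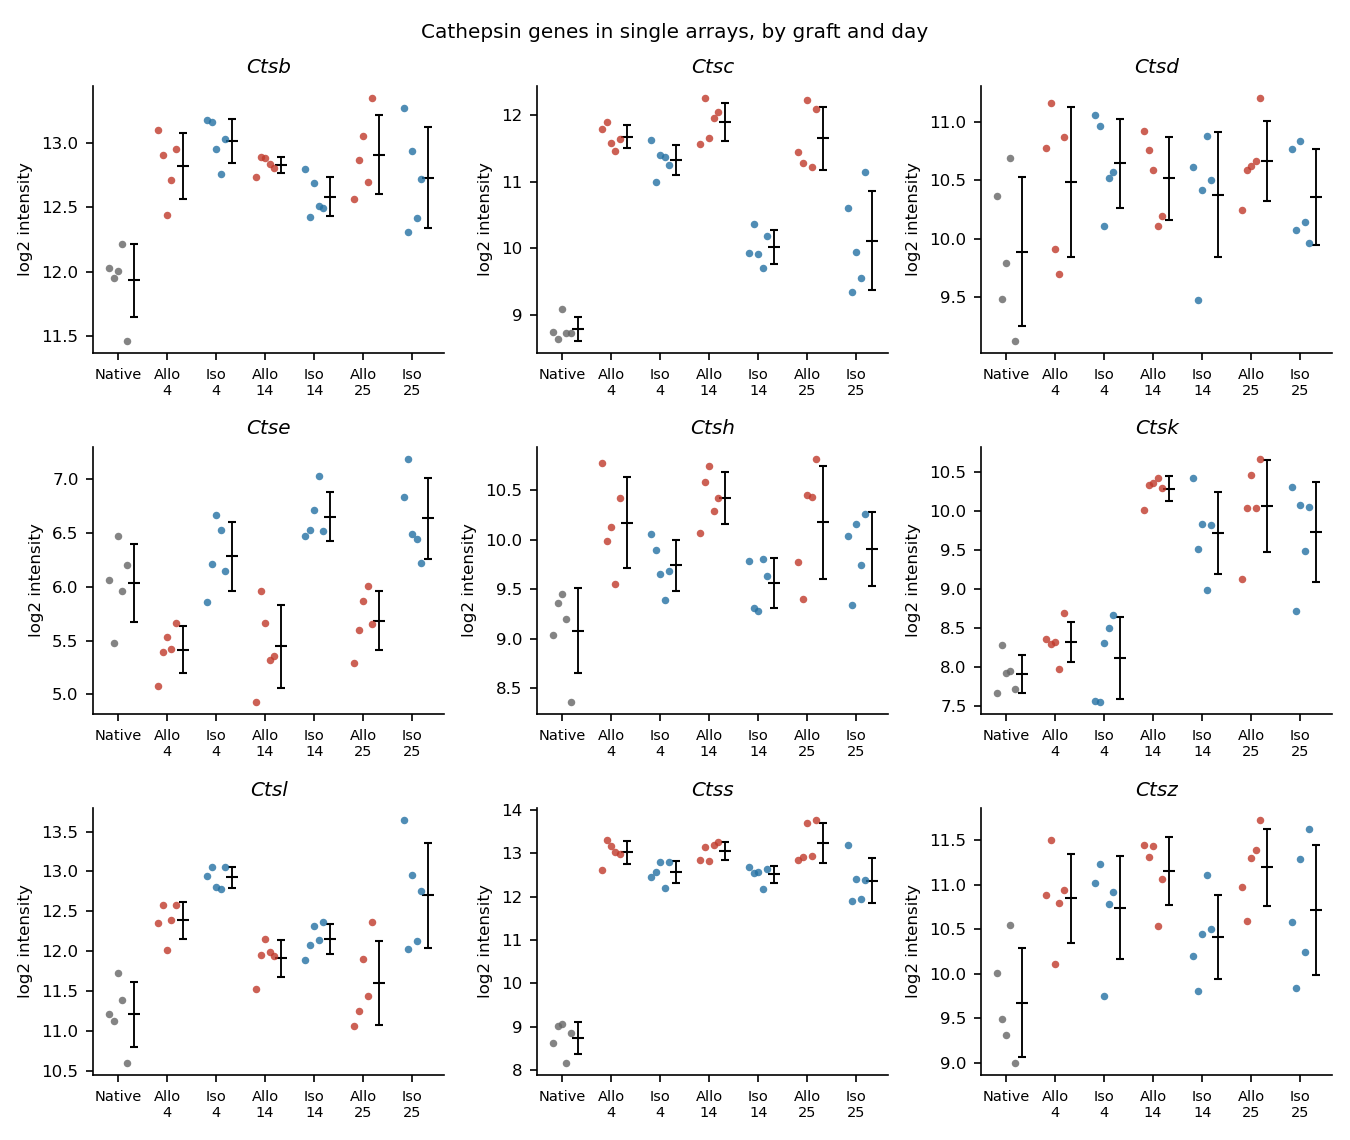
Log2 intensity of each of the 9 cathepsin genes in every array (points, y axis) by group (x axis: native trachea, then allografts and isografts at days 4, 14 and 25), with the group mean and SD of 5 arrays beside the points. Ctss lies at 8.16 to 9.07 in native arrays and above 11.9 in every graft array, and Ctsk lies higher from day 14 than at day 4 in both kinds of graft.

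The comparison of grafts with native trachea asked how transplantation itself changed each gene. Most cathepsins were higher in grafts: 6 of 9 were called higher and 1 lower in day 4 allografts, 7 higher and 1 lower in day 14 allografts, and 7 higher and 0 lower in day 25 allografts. In isografts, 7, 6 and 8 of 9 were called higher at days 4, 14 and 25, and 0 lower at each day. Of all 8306 genes tested, 22.0% were called higher and 25.1% lower in day 4 allografts, 21.5% and 26.5% in day 14 allografts, and 18.4% and 19.7% in day 25 allografts. In isografts against native trachea the shares were 20.2% higher and 26.1% lower at day 4, 12.2% and 16.3% at day 14, and 9.90% and 7.34% at day 25. Over the 9 cathepsins the median difference from native trachea at days 4, 14 and 25 was 1.09, 1.34 and 1.09 for allografts, with 1.07, 0.74 and 1.04 for isografts, whereas the median over all genes lay between -0.10 and 0.01. Other tissue content moved in the same comparisons. Of 7 secretory epithelium markers, 7 were called lower than native trachea in allografts at each day (median differences -3.17, -7.69 and -9.28 at days 4, 14 and 25), and 7, 1 and 1 were in isografts (-3.10, -0.23 and -0.14). Of 5 skeletal muscle markers, 5, 5 and 4 were called lower in allografts (-4.32, -7.08 and -4.27) and 4, 0 and 0 in isografts (-3.49, -2.26 and -2.02). The mean of 3 thyroid markers had a median over arrays of 5.01, 3.20 and 3.03 in allografts and 4.87, 6.22 and 6.85 in isografts, against 7.91 in native trachea. The part of these changes in the cathepsin differences was not tested. These 6 comparisons share the 5 native arrays, so they do not repeat each other independently. Without the 2 arrays that stood apart, 7, 7 and 6 cathepsins were called in allografts and 5, 6 and 6 in isografts. The differences from native trachea were then 3.65 to 4.52 for Ctss, 1.06 to 3.10 for Ctsc and, at days 14 and 25, 1.70 to 2.33 for Ctsk, all still called. Other scalings of the arrays moved the median of all genes by 0.105 to 0.166 in several comparisons with native trachea and between days, and turned no called cathepsin round.

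**Figure D2:**
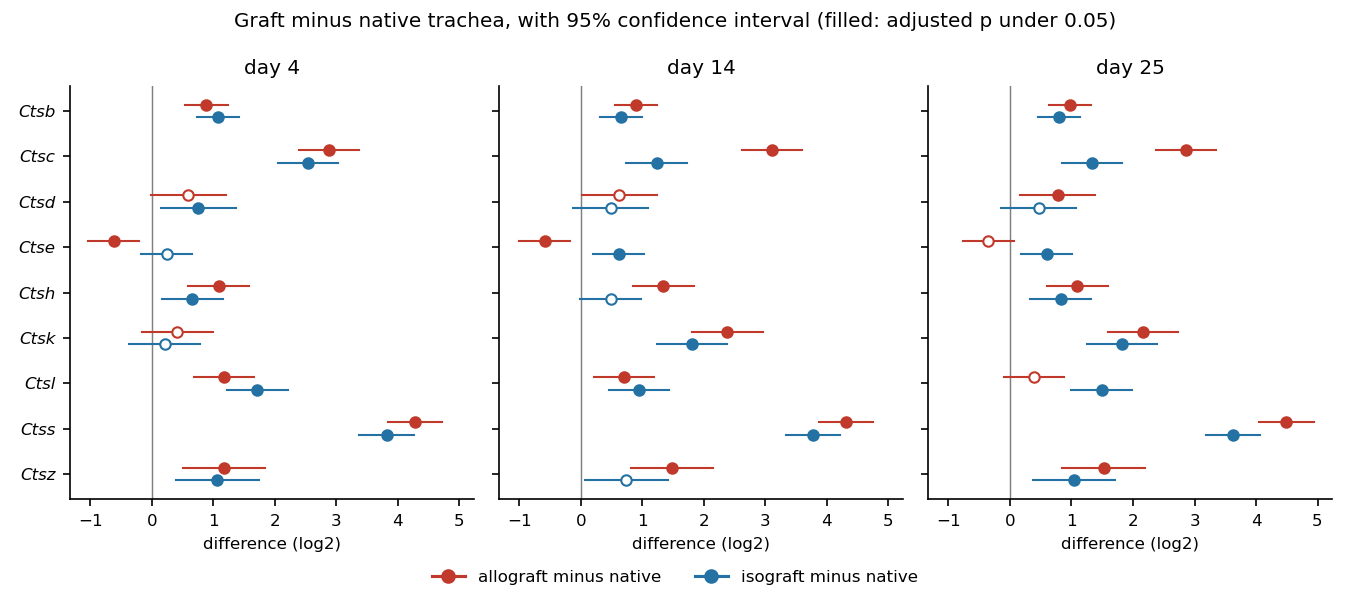
Difference in log2 intensity from native trachea (x axis) for each cathepsin (rows) at days 4, 14 and 25, allografts in red above isografts in blue, with 95% confidence intervals and filled points where the adjusted p was under 0.05. Ctss has the largest differences, 4.28 to 4.49 in allografts and 3.63 to 3.82 in isografts, and Ctse is the only gene whose called differences are below 0 in allografts.

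Ctss encodes cathepsin S, the invariant-chain protease of many antigen-presenting cells, and it moved most of the 9 cathepsins against native trachea. Its levels in day 4 allografts were 12.62, 13.30, 13.17, 13.03 and 12.98, in day 14 allografts 12.84, 13.14, 12.83, 13.20 and 13.26, and in day 25 allografts 12.85, 12.92, 13.70, 12.93 and 13.77. Isografts had 12.46, 12.56, 12.80, 12.19 and 12.79 at day 4, 12.68, 12.54, 12.57, 12.17 and 12.63 at day 14 and 13.20, 11.90, 12.42, 11.95 and 12.38 at day 25. Native tracheas had 8.62, 9.01, 9.07, 8.16 and 8.85. Every graft array lay above every native array. The differences from native trachea were 4.28, 4.31 and 4.49 in allografts and 3.82, 3.78 and 3.63 in isografts (SE 0.22 each, 19.4-, 19.9- and 22.5-fold and 14.1-, 13.7- and 12.4-fold), all called with adjusted p of 1.2e-13 or less.

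Between allografts and isografts the Ctss differences were smaller. They were 0.46 at day 4 (SE 0.22, adjusted p = 0.889), 0.54 at day 14 (SE 0.22, adjusted p = 0.088) and 0.87 at day 25 (SE 0.22, adjusted p = 0.00456), so only day 25 was called. With a covariate for RNA integrity, described below, day 14 was called too (0.60, adjusted p = 0.0484). The arrays of the 2 groups did not overlap at day 14 but did at day 25, where isograft replicate 1 reached 13.20. Without the arrays that stood apart the day 25 difference was 0.87 (adjusted p = 0.00949). In a fit of the compared groups alone, day 14 was called (adjusted p = 0.0395) and day 25 was not (adjusted p = 0.0869). Neither change of the Ctss difference between days was called (0.08 from day 4 to day 14, adjusted p = 0.943, and 0.33 from day 14 to day 25, adjusted p = 0.884). The order of its group means was day 25, day 14 and day 4 allografts, then day 4, day 14 and day 25 isografts, then native trachea, and each neighbouring pair overlapped except the last.

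Markers of macrophages moved alongside. The mean level of 14 macrophage markers was 9.04 to 9.69, 9.11 to 9.78 and 8.93 to 10.05 in allograft arrays of days 4, 14 and 25, and 8.91 to 9.34, 8.28 to 8.44 and 7.64 to 9.15 in isograft arrays, against 6.45 to 7.09 in native arrays. Of the 14 markers, 11 were called higher than in native trachea in every graft group but the day 25 isografts, where 10 were. Others were called lower than in native trachea: 1, 2 and 2 in allografts of days 4, 14 and 25, and 1, 2 and 0 in isografts. Of all genes, 9.90% to 22.0% were called higher and 7.34% to 26.5% lower than in native trachea, depending on the graft group. Against isografts of the same day, 1, 9 and 8 of the 14 were called higher in allografts, and Cd14 and Cd163 were called lower at day 25. Among all genes, 0.470%, 10.8% and 6.83% were called higher at the 3 days, and 10.3% lower at day 25. In bulk tissue, more cells of a type and more RNA per cell cannot be told apart, and the part of macrophage content in the cathepsin differences was not tested.

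The partners of cathepsin S in class II presentation are Cd74, which encodes the invariant chain, the class II chains H2-Aa, H2-Ab1 and H2-Eb1, and H2-DMa, a chain of the peptide-loading molecule. Of the 5 tested, 0 were called at day 4 and all 5 were higher in allografts than in isografts at days 14 and 25. The shares of all genes called higher were 0.470%, 10.8% and 6.83% at days 4, 14 and 25. Cd74 was at 12.58 in day 14 allografts and 11.40 in day 14 isografts, a difference of 1.18 (SE 0.24, adjusted p = 0.000533), and its difference at day 25 was 1.57 (SE 0.24, adjusted p = 1.12e-05). H2-DMa differed by 2.32 at day 14 (SE 0.42) and by 3.11 at day 25 (SE 0.42), H2-Ab1 by 1.20 at day 14, and H2-Aa and H2-Eb1 by 2.08 and 1.93 at day 25. All 5 were also called higher than native trachea in both kinds of graft at days 14 and 25.

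Ctsl encodes cathepsin L, a broad endopeptidase, and its highest mean was in isografts, as were those of Ctsb and of the Ctse representative. Levels in allografts were 12.36, 12.58, 12.02, 12.40 and 12.59 at day 4, 11.53, 11.96, 12.16, 11.98 and 11.94 at day 14 and 11.06, 11.25, 11.90, 11.44 and 12.36 at day 25. In isografts they were 12.95, 13.06, 12.80, 12.78 and 13.05 at day 4, 11.89, 12.08, 12.32, 12.14 and 12.36 at day 14 and 13.64, 12.02, 12.96, 12.13 and 12.75 at day 25. Native arrays had 11.21, 11.13, 11.72, 11.39 and 10.60. Day 4 isograft arrays all lay above every day 4 allograft array, while the day 14 and day 25 groups overlapped. The allograft minus isograft difference was -0.54 at day 4 (SE 0.24, adjusted p = 0.854), -0.25 at day 14 (SE 0.24, adjusted p = 0.565) and -1.10 at day 25 (SE 0.24, adjusted p = 0.00118), a 2.14-fold lower level at the last day. Neutrophil markers moved at that day too: the mean of 5 was 4.65 to 6.01 in day 25 allografts and 5.71 to 7.65 in day 25 isografts, and 2 of the 3 that passed the filter were called lower in allografts (median -2.38), against 0 of 3 at days 4 and 14. Their part in the Ctsl difference was not tested.

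The day 25 call for Ctsl held without the arrays that stood apart (-1.09, adjusted p = 0.002) and was lost when only the 2 compared groups were fitted (adjusted p = 0.0657). Against native trachea Ctsl was higher by 1.18 and 0.70 in day 4 and day 14 allografts and by 1.72, 0.95 and 1.49 in isografts of days 4, 14 and 25 (SE 0.24 each, all called). The day 14 allograft difference was 0.55 without native replicate 5 and was then not called (adjusted p = 0.0657). In day 25 allografts the difference from native trachea was 0.39 (adjusted p = 0.21) and was not called. Within isografts Ctsl was 0.77 lower at day 14 than at day 4 (difference -0.77, SE 0.24, adjusted p = 0.0208), a call that was lost with arrays centred on reference genes (adjusted p = 0.0728) or without day 14 replicate 1 (adjusted p = 0.0514).

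Ctsc encodes cathepsin C, also called dipeptidyl peptidase 1, and it showed the largest allograft-isograft difference of the 9 genes. Its levels in allografts were 11.79, 11.90, 11.58, 11.45 and 11.63 at day 4, 11.57, 12.25, 11.65, 11.96 and 12.05 at day 14 and 11.44, 11.29, 12.22, 11.22 and 12.10 at day 25. Isografts had 11.62, 11.00, 11.40, 11.37 and 11.24 at day 4, then 9.93, 10.36, 9.92, 9.71 and 10.18 at day 14 and 10.60, 9.35, 9.94, 9.55 and 11.14 at day 25. Native tracheas had 8.74, 8.64, 9.10, 8.72 and 8.73. At day 4 both kinds of graft were high and overlapped, and at days 14 and 25 every allograft array lay above every isograft array. Isograft arrays stayed above every native array at all 3 days.

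The Ctsc difference between allografts and isografts was 0.34 at day 4 (SE 0.24, adjusted p = 1), 1.88 at day 14 (SE 0.24, 3.67-fold, adjusted p = 4.99e-07) and 1.54 at day 25 (SE 0.24, 2.90-fold, adjusted p = 1.23e-05). Without day 25 isograft replicate 5, whose 11.14 was the highest of its group, and native replicate 5, the day 25 difference was 1.79 (adjusted p = 2.72e-07). Within isografts Ctsc fell by 1.31 from day 4 to day 14 (SE 0.24, adjusted p = 0.000172), while the same step in allografts was 0.23 (SE 0.24, adjusted p = 0.649). The growth of the allograft-isograft difference between those days was 1.53 (SE 0.34, adjusted p = 0.00386), the 1 interaction called among the 9 cathepsins. Of all genes tested, 2.67% were called higher and 4.96% lower in that interaction. Against native trachea Ctsc was higher by 2.88, 3.11 and 2.87 in allografts and by 2.54, 1.23 and 1.33 in isografts, all called.

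Granule proteases that cathepsin C activates were on the array as 7 genes, of which 3 passed the filter. Gzmb, which encodes granzyme B of killer lymphocytes, averaged 8.55 in day 14 allografts and 4.04 in day 14 isografts, and 7.48 in day 25 allografts and 4.16 in day 25 isografts. Both days were called, but the isograft means lay under the filter level of 5, so no size is given for the difference. Gzma, which encodes granzyme A, was higher in allografts by 1.65 at day 14 and 1.07 at day 25 (SE 0.25 each, both called). Cma1, a mast cell chymase, differed by -0.05 and 0.11 and was not called. None of the 3 was called between allografts and isografts at day 4. Against native trachea, however, 2 of the 3 were called higher and 1 lower at day 4 in each kind of graft. The shares of all genes were 22.0% higher and 25.1% lower in allografts, and 20.2% and 26.1% in isografts. T cells are the main source of granzymes besides natural killer cells. Of 6 T cell markers, 4 were called higher in allografts than in isografts at day 14 and 4 at day 25, against 10.8% and 6.83% of all genes. Their mean was 5.22 to 6.17 and 5.61 to 6.04 in allograft arrays of days 14 and 25. It was 4.10 to 4.54 and 4.14 to 5.33 in isograft arrays and 3.79 to 5.45 in native arrays. At day 4 it was 3.99 to 4.55 in allografts and 4.04 to 4.34 in isografts. Against native trachea, 0 of the 6 were then called higher and 1 lower in allografts, and 0 and 1 in isografts. The part of T cells in the Ctsc difference was not tested.

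**Figure D3:**
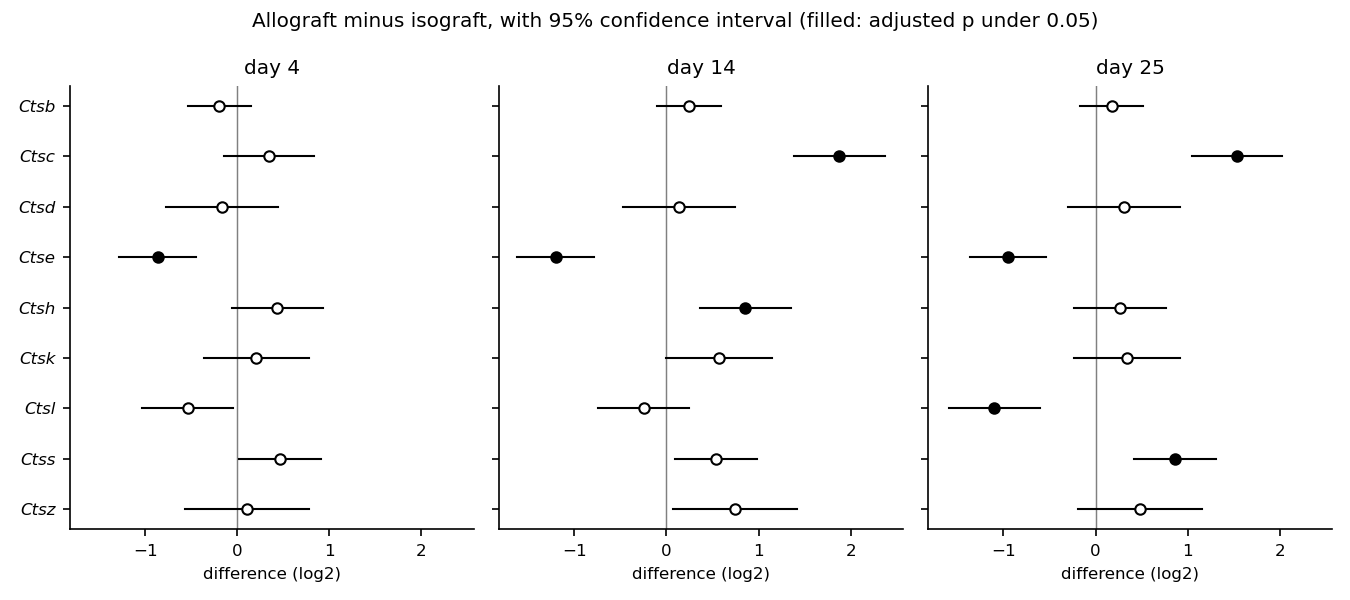
Allograft minus isograft difference in log2 intensity (x axis) for each cathepsin (rows) at days 4, 14 and 25, with 95% confidence intervals and filled points where the adjusted p was under 0.05. Ctsc lies at 1.88 and 1.54 at days 14 and 25, Ctse lies below 0 at all 3 days on the probe set shown, and Ctsl lies at -1.10 at day 25.

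Between allografts and isografts, 1, 3 and 4 of the 9 genes were called at days 4, 14 and 25. At day 4, 0 cathepsins were called higher and 1 lower, against 0.470% and 0.0843% of all genes. At day 14, 2 were higher and 1 lower, against 10.8% and 10.5% of all genes, and at day 25, 2 were higher and 2 lower, against 6.83% and 10.3%. The median difference over the 9 cathepsins was 0.11, 0.54 and 0.31 at the 3 days, and over all genes 0.03, 0.03 and -0.002. From day 14 to day 25, 0 interactions were called among the cathepsins, and 0.470% of all genes were called higher and 0.771% lower.

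Ctsk encodes the collagen-degrading cathepsin K, and it was higher at day 14 than at day 4 in both kinds of graft. In allografts its levels were 8.36, 8.29, 8.32, 7.97 and 8.70 at day 4, 10.02, 10.34, 10.37, 10.43 and 10.30 at day 14 and 9.13, 10.04, 10.47, 10.05 and 10.67 at day 25. In isografts they were 7.57, 7.55, 8.31, 8.50 and 8.67 at day 4, 10.43, 9.52, 9.84, 8.99 and 9.82 at day 14 and 10.32, 8.72, 10.08, 9.50 and 10.05 at day 25. Native tracheas had 7.66, 8.28, 7.93, 7.95 and 7.72. Day 4 grafts overlapped with native trachea, and every day 14 array lay above every day 4 array of the same kind of graft. Each later group also lay wholly above native trachea.

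Ctsk rose between day 4 and day 14 by 1.96 in allografts (SE 0.28, 3.90-fold, adjusted p = 1.38e-05) and by 1.60 in isografts (SE 0.28, 3.03-fold, adjusted p = 9.65e-05). It was the 1 cathepsin called in the allograft step, where 3.65% of all genes rose and 5.27% fell. In the isograft step it was the 1 that rose, with Ctsc and Ctsl the 2 that fell, against 11.4% and 12.6% of all genes. From day 14 to day 25, 0 cathepsins were called in allografts or isografts, where 1.60% of all genes were called higher and 1.89% lower in allografts, and 0.00% in each direction in isografts. Against native trachea Ctsk was higher by 2.38 and 2.16 in day 14 and day 25 allografts and by 1.81 and 1.82 in isografts (SE 0.28 each, all called), and by 0.42 and 0.21 in day 4 allografts and isografts (not called). Allografts minus isografts gave 0.21, 0.57 and 0.34 at days 4, 14 and 25 (SE 0.28, adjusted p = 1, 0.177 and 0.519), with 95% intervals of -0.37 to 0.78, -0.004 to 1.14 and -0.24 to 0.91.

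Osteoclast markers were checked beside Ctsk. The receptor and adhesion genes Calcr, Oscar and Itgb3 were low in every group, with means of 2.19 to 3.54, and did not pass the filter. Acp5, the tartrate-resistant acid phosphatase gene, and Nfatc1, a transcription factor gene of osteoclasts and lymphocytes, were higher in day 14 allografts than in day 14 isografts by 1.46 (SE 0.39) and 1.48 (SE 0.26), both called. Ocstamp had a mean of 4.78 in day 14 allografts and 2.28 in day 14 isografts and was below the filter, so it was not tested. The mean of 6 osteoclast markers was 4.76 to 5.39 in day 14 allografts and 3.93 to 4.28 in day 14 isografts. At day 4 it was 4.025 to 4.17 in allografts and 3.98 to 4.26 in isografts, against 4.045 to 4.25 in native trachea. At day 25 it was 4.29 to 4.95 in allografts and 4.06 to 4.76 in isografts. Of the 2 that passed the filter, 2 were called higher at day 14 than at day 4 in allografts and 0 in isografts. The shares of all genes were 3.65% and 11.4%. The part of osteoclasts in the Ctsk differences was not tested. Fibroblast markers, 7 in all, had a mean of 10.16 to 10.91 in native trachea. In allografts of days 4, 14 and 25 it was 11.04 to 11.60, 11.51 to 12.06 and 11.78 to 12.31. In isografts it was 11.15 to 11.51, 11.15 to 12.22 and 11.07 to 11.87. Between day 4 and day 14, 1 of the 7 was called higher in allografts and 2 in isografts, and 0 lower in either. The part of fibroblasts in the Ctsk difference was not tested. The 2 genes most like Ctsk over the 35 arrays were Mmp2, a gelatin-degrading metalloprotease (Pearson r = 0.932, and 0.617 after group means were removed), and Htra1, a secreted serine protease (r = 0.897 and 0.529).

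Ctse encodes cathepsin E, and on its representative probe set 1418989_at it was lower in allografts at every day. Its levels in allografts were 5.08, 5.39, 5.53, 5.42 and 5.66 at day 4, 4.93, 5.96, 5.66, 5.32 and 5.36 at day 14 and 5.29, 5.60, 5.87, 6.01 and 5.66 at day 25. Isografts had 5.86, 6.21, 6.67, 6.53 and 6.15 at day 4, 6.47, 6.52, 6.71, 7.03 and 6.52 at day 14 and 6.83, 7.19, 6.50, 6.44 and 6.22 at day 25. Native tracheas had 6.06, 5.48, 6.47, 5.96 and 6.20. Over all groups the values ran from 4.93 to 7.19, and those of allografts, 4.93 to 6.01, lay closest to the filter of 5. Allograft and isograft arrays did not overlap at any of the 3 days, and native arrays overlapped with every graft group except day 14 isografts. There the groups all but met, with the highest native array at 6.469 and the lowest isograft array at 6.47. The allograft minus isograft difference was -0.87 at day 4 (SE 0.20, adjusted p = 0.0319), -1.20 at day 14 (SE 0.20, adjusted p = 3.97e-05) and -0.95 at day 25 (SE 0.20, adjusted p = 0.00085), which is 1.82-, 2.30- and 1.93-fold lower. Without the arrays that stood apart the day 25 difference was -1.06 (adjusted p = 0.00046).

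The second Ctse probe set, 1427797_s_at, did not show this. It ranged from 2.39 to 7.86 over the 35 arrays, and its allograft minus isograft differences were 0.37, -0.11 and 0.35 (SE 0.90, adjusted p = 1, 0.962 and 0.87). The correlation of the 2 probe sets over the 35 arrays was -0.223. When the 2 were averaged, the differences were -0.25, -0.66 and -0.30 (adjusted p = 1, 0.322 and 0.707) and none was called. At day 4 the call on the representative probe set was also lost in 8 of the 10 fits that left out 1 of the compared arrays (adjusted p of 0.0187 to 0.146). A direction for Ctse therefore rests on 1 of its 2 probe sets. Against native trachea the representative was lower by 0.62 and 0.59 in day 4 and day 14 allografts (difference -0.62 and -0.59) and higher by 0.62 and 0.60 in day 14 and day 25 isografts (SE 0.20, adjusted p of 0.0138 to 0.0405). The day 14 allograft call was lost under all 3 other scalings (-0.49 to -0.46), and both isograft calls were lost with the actin covariate described below (0.50 and 0.53, adjusted p = 0.0846 and 0.0668). With only the compared groups fitted, the day 14 allograft call and both isograft calls were lost (adjusted p = 0.0588, 0.0529 and 0.123).

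Arrays also differed in the integrity of their RNA, as far as control probe sets at both ends of a transcript show it. The actin control's 3′ end exceeded its 5′ end by 1.65 to 2.31 in day 14 allografts, 1.77 to 2.45 in day 14 isografts and 1.15 to 2.09 in native trachea, and the widest range was 0.85 to 2.78 in day 25 isografts. After group means were removed, the second Ctse probe set followed this difference over the 35 arrays, with Pearson r = -0.752 and Spearman rho = -0.755 (permutation test within groups, adjusted p = 0.0003 each over 15 cathepsin probe sets). Without the 2 arrays farthest from the median, r was -0.702. The Ctsb probe set 1448732_at had r = -0.639 (adjusted p = 0.00142), and the Ctsz probe sets 1417868_a_at and 1417870_x_at had r = -0.638 and -0.564 (adjusted p = 0.0045 and 0.0132). The remaining Ctsz probe set, 1417869_s_at, had r = -0.26 (adjusted p = 0.338). The Ctse representative had r = 0.316 (adjusted p = 0.286), and the single probe sets of Ctsc, Ctss, Ctsk and Ctsl lay between -0.320 and 0.293 (adjusted p of 0.338 or more). Ctsd, also with 1 probe set, had r = -0.373 (adjusted p = 0.163), -0.469 without the 2 farthest arrays, and rho = -0.499 (adjusted p = 0.0262). With the actin difference as a covariate, an alternative added after the data were seen, the second Ctse probe set still had 0 calls against isografts (0.46, -0.80 and 0.44, SE 0.61, 0.62 and 0.61).

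The genes most like Ctse over the 35 arrays were H2-Ea and Rabgap1l (Pearson r = 0.801 and 0.731, and -0.032 and 0.418 after group means were removed). H2-Ea is a class II chain gene that mice of some MHC haplotypes do not express. It was at 6.21 to 7.15, 6.92 to 7.78 and 6.60 to 7.48 in allografts of days 4, 14 and 25, and at 8.56 to 8.96, 9.13 to 9.77 and 8.70 to 9.84 in isografts, against 7.93 to 8.44 in native trachea. Thus H2-Ea, like the representative of Ctse and unlike the 5 class II partners above, lay lower in allografts at all 3 days with no overlap. The strains of donors and recipients are not in the labels used here, and their part in the Ctse difference was not tested. Epithelial markers moved as well. The mean of 7 markers was 7.33 to 8.37, 4.43 to 7.14 and 2.94 to 3.54 in allografts of days 4, 14 and 25. In isografts it was 7.74 to 8.58, 7.69 to 8.90 and 7.49 to 8.55. Of these 7 markers, 0, 5 and 7 were called lower in allografts at the 3 days, and their part in the Ctse difference was not tested.

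**Figure D4:**
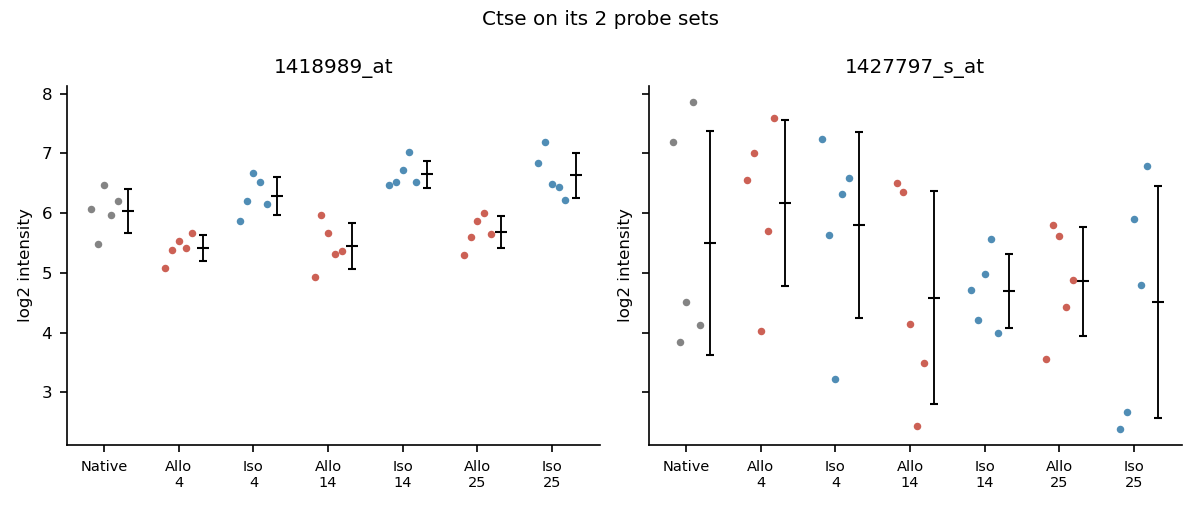
Log2 intensity of the 2 probe sets of Ctse in every array (points, y axis) by group (x axis), with the mean and SD of 5 arrays beside the points. On 1418989_at the allograft arrays lie below the isograft arrays of the same day. On 1427797_s_at the arrays of all groups together range from 2.39 to 7.86, and the groups overlap.

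Ctsh encodes cathepsin H, an aminopeptidase, and it was called between grafts at day 14. Day 14 allografts had 10.06, 10.59, 10.75, 10.29 and 10.42, and day 14 isografts had 9.79, 9.32, 9.29, 9.80 and 9.63. The groups did not overlap, with a difference of 0.86 (SE 0.24, 1.81-fold, adjusted p = 0.0109). At days 4 and 25 the differences were 0.43 and 0.27 (SE 0.24, adjusted p = 1 and 0.562). Native tracheas had 9.04, 9.36, 9.45, 9.20 and 8.36. Against them Ctsh was higher by 1.09, 1.34 and 1.09 in allografts and by 0.66 and 0.83 in day 4 and day 25 isografts (all called), and by 0.48 in day 14 isografts (adjusted p = 0.132). That last difference was called under quantile normalization (0.64, adjusted p = 0.0421) and median centring (0.65, adjusted p = 0.0306). The day 4 and day 25 isograft calls were lost without the arrays that stood apart, at 0.48 (adjusted p = 0.106) and 0.56 (adjusted p = 0.116).

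Ctsb, which encodes the widely expressed cathepsin B, was higher than native trachea in all 6 graft groups and differed little between them. Its medians were 12.91, 12.84 and 12.87 in allografts and 13.03, 12.51 and 12.72 in isografts at days 4, 14 and 25, against 12.00 in native trachea, and no graft array of any group overlapped with the native arrays. The differences from native trachea were 0.89, 0.90 and 0.97 in allografts and 1.08, 0.65 and 0.80 in isografts (SE 0.17 each, all called, also without the arrays that stood apart). Between allografts and isografts they were -0.20, 0.25 and 0.18 (SE 0.17), with 95% intervals of -0.54 to 0.15, -0.10 to 0.59 and -0.17 to 0.52, and none was called. Its probe sets 1417491_at and 1417492_at were also called higher than native trachea in all 6 groups, by 0.86 to 1.51 and 1.25 to 1.93. The probe set 1448732_at was called in 2 of the 6, day 25 allografts (1.38) and day 4 isografts (1.58), and its SE of 0.53 was larger.

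Ctsz, which encodes the carboxypeptidase cathepsin Z, had medians of 10.88, 11.31 and 11.30 in allografts and 10.91, 10.45 and 10.58 in isografts at days 4, 14 and 25, against 9.50 in native trachea. It was higher than native trachea by 1.17, 1.48 and 1.52 in allografts and by 1.07 and 1.04 in day 4 and day 25 isografts (SE 0.33, all called), and by 0.74 in day 14 isografts (adjusted p = 0.0884). That last difference was called under all 3 other scalings (0.87 to 0.91) and with the actin covariate (1.15, adjusted p = 0.00396). It was also called on 1417869_s_at (0.88, adjusted p = 0.0128), on 1417870_x_at (0.88, adjusted p = 0.0337) and with the probe sets averaged (0.83, adjusted p = 0.0268). The day 25 isograft call was lost without the arrays that stood apart (0.65, adjusted p = 0.177). Between grafts at day 14 the representative differed by 0.74 (SE 0.33, adjusted p = 0.123), the probe set 1417869_s_at by 0.89 (SE 0.26, adjusted p = 0.0137, groups not overlapping) and 1417870_x_at by 0.78 (SE 0.31, adjusted p = 0.0812). The call for Ctsz between grafts at day 14 thus depends on the probe set, and with the probe sets averaged it was called (0.805, adjusted p = 0.0361).

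Ctsd, which encodes the aspartic protease cathepsin D, had the fewest calls of the 9. Its medians were 10.78, 10.59 and 10.62 in allografts and 10.57, 10.51 and 10.14 in isografts, against 9.79 in native trachea, whose arrays reached 10.69 and overlapped with every graft group. It was called higher than native trachea in day 25 allografts (0.78, SE 0.30, adjusted p = 0.0418) and day 4 isografts (0.76, SE 0.30, adjusted p = 0.0396), and neither call held without the arrays that stood apart (0.58 and 0.57, adjusted p = 0.126 and 0.13). In day 14 allografts Ctsd was 0.63 above native trachea and not called, but it was called under 4 alternatives: array weights (0.67), median centring (0.76), centring on reference genes (0.73) and the actin covariate (0.73), with adjusted p of 0.0284 to 0.0358. Day 4 allografts were called with array weights (0.80, adjusted p = 0.0167). Allografts minus isografts gave -0.16, 0.14 and 0.31 (SE 0.30), with 95% intervals of -0.77 to 0.45, -0.47 to 0.75 and -0.30 to 0.92.

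For the remaining cathepsins, the 2 genes with the most similar pattern are given as a description over 35 arrays that share the 7 groups. Ctss was nearest to Tyrobp, an adaptor of myeloid and natural killer receptors (r = 0.96), and Mpeg1, a macrophage perforin-like gene (r = 0.958). Ctsc was nearest to Tfec and Clec4n (r = 0.955 and 0.954) and the second of these encodes dectin 2, a fungal sugar receptor. Ctsb was nearest to Cd68, a lysosomal glycoprotein of macrophages, and Fcgr3, an IgG receptor (r = 0.906 and 0.904). Ctsz was nearest to Sirpa and Stab1 (r = 0.852 and 0.847), Ctsh to the immunoproteasome subunit Psmb10 and the oxidase subunit Cyba (r = 0.871 and 0.87), and Ctsl to the chemokine receptor Cxcr4 and to Apobec1 (r = 0.827 and 0.798). Ctsd was nearest to Ctsz and the galectin gene Lgals9 (r = 0.747 and 0.735). With group means removed, these values ranged from 0.558 to 0.833. Cd68 and Mpeg1 are also in the list of 14 macrophage markers above.

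Other lysosomal genes were set beside the cathepsins as lists. Of 34 lysosomal hydrolase genes tested, 10 were called higher and 0 lower in allografts than in isografts at day 14, 8 and 0 at day 25, and 0 and 0 at day 4. The shares of all genes were 10.8% and 10.5% at day 14, 6.83% and 10.3% at day 25, and 0.470% and 0.0843% at day 4. Acp5 led at day 14, followed by Ifi30, the lysosomal thiol reductase (1.41, SE 0.25), and Gla, alpha-galactosidase A, which averaged 6.15 in allografts and 4.82, under the filter level, in isografts. At day 25 the leading ones were Prcp, a prolylcarboxypeptidase (1.30, SE 0.26), Naaa, an acid amidase (1.15, SE 0.25), and Scpep1, a serine carboxypeptidase (1.01, SE 0.30). The list's median difference was 0.37 at day 14 and 0.22 at day 25. Against native trachea at day 14, 23 hydrolases were called higher and 1 lower in allografts, and 13 higher and 1 lower in isografts. The shares of all genes were 21.5% and 26.5% in allografts, and 12.2% and 16.3% in isografts.

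For the lists in this paragraph the same shares of all genes apply, 10.8% higher and 10.5% lower at day 14, and 6.83% and 10.3% at day 25. Of 13 lysosomal membrane genes, 3 were called higher and 1 lower in allografts than in isografts at day 14, and 3 and 0 at day 25. The 3 were at both days Npc1, a cholesterol transporter (1.62 at day 14, SE 0.28), Slc11a1, a metal ion transporter of phagocytes (1.12, SE 0.28), and Laptm5, a membrane protein of blood cells (1.03, SE 0.26). Of 15 proton pump subunits, 2 were called at day 14, Tcirg1 (0.61, SE 0.20) and Atp6v1d (0.53, SE 0.16), both higher, which is a share close to the 10.8% of all genes, and 0 were called at day 25. Of 9 sorting and regulator genes, 3 were called higher and 2 lower at day 14, among them Gnptab (0.83) and M6pr (0.67), which make and bind the mannose 6-phosphate tag of lysosomal enzymes, and the sorting receptor Sort1 (-1.31, SE 0.40), and 0 were called at day 25.

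Inhibitors of cysteine cathepsins moved too. Of 5 tested, 3 were called higher and 1 lower in allografts than in isografts at day 14, and 2 and 0 at day 25. The shares of all genes were 10.8% and 10.5% at day 14, and 6.83% and 10.3% at day 25. Cst7, which encodes cystatin F, an inhibitor targeted to lysosomes of immune cells, averaged 5.29 in day 14 allografts and 3.45 in day 14 isografts, and 5.27 in day 25 allografts and 3.24 in day 25 isografts. It was called at both days, but its means lay under 5 in every other group, so it passed the filter through day 14 and day 25 allografts and no size is given. Ctla2a and Ctla2b, named for cytotoxic T cells and related to cathepsin propeptides, differed by 1.20 and 1.44 at day 14, and Ctla2b by 1.30 at day 25. Cst3, chosen after its values were seen as the 1 called lower, encodes the secreted cystatin C and was at 11.57 in day 14 allografts and 12.46 in day 14 isografts (difference -0.90, SE 0.20, adjusted p = 0.00104) and at 12.84 and 12.64 in day 25 allografts and isografts (0.20, adjusted p = 0.604).

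Of 13 other cathepsin-type genes on the array, 4 passed the filter. Ctsw, a cathepsin gene of cytotoxic lymphocytes, was at 6.97 in day 14 allografts and 5.35 in day 14 isografts (1.62, SE 0.25, adjusted p = 9.99e-06) and at 7.49 in day 25 allografts and 4.93, under the filter level, in day 25 isografts. The other 3 are named because so few were tested. Ctsa, the protective protein of lysosomal galactosidase, was higher than native trachea by 1.14 in day 14 allografts and 0.99 in day 14 isografts (SE 0.27, both called) and differed by 0.15 between them. Ctsf and Napsa were lower than in native trachea, Ctsf with means of 3.93 in day 14 allografts and 4.65 in day 14 isografts, both under the filter level, against 5.44 in native trachea (both called), and Napsa with differences of -0.84 and -0.98 (SE 0.30, both called).

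**Figure D5:**
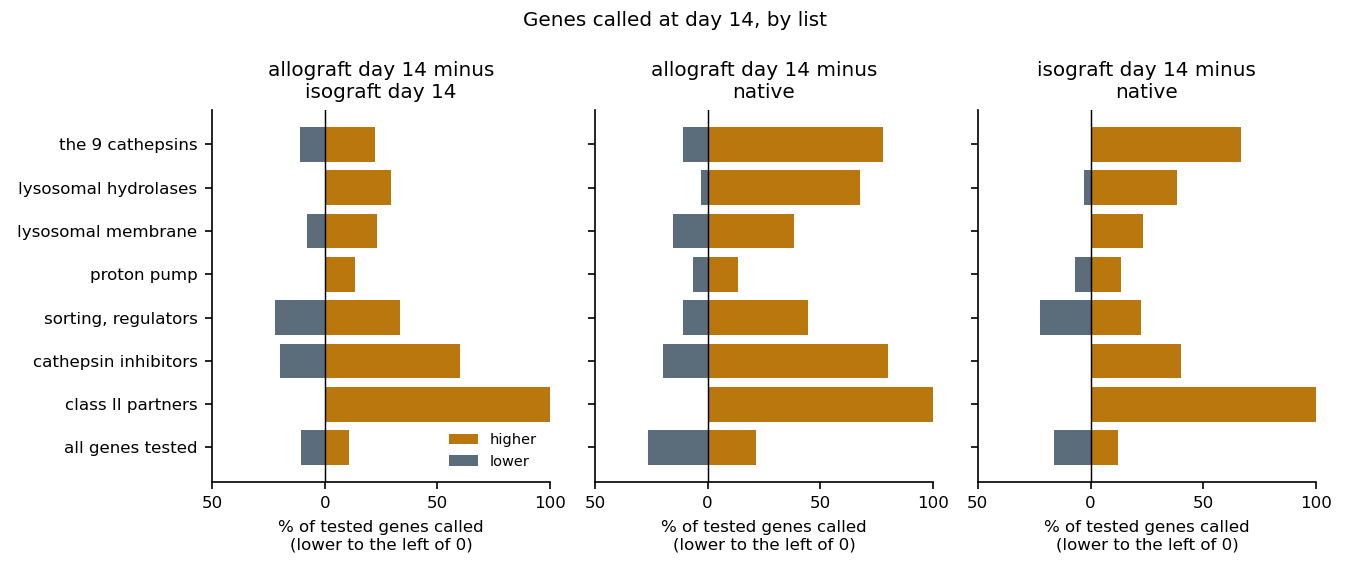
Percent of the tested genes of each list called higher (to the right of 0) or lower (to the left) at day 14 (x axis, percent), in allografts minus isografts, allografts minus native and isografts minus native, with all 8306 genes tested in the lowest row. Of the 9 cathepsins 2 were higher and 1 lower between grafts, and all 5 class II partners were higher in each of the 3 comparisons.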

How the data were processed

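RNA from 35 mouse tracheal samples was hybridised to Affymetrix arrays. The deposited values are log2 intensities per probe set, made with GCRMA 1.1.3 per the submitters' processing notes, which subtracts background by base content and fits probe effects over all arrays. They were used as deposited. Of 22626 probe sets, 20380 named 1 gene, 691 several and 1555 none in the platform annotation. The 13678 with a log2 value of at least 5 in at least 5 arrays were fitted as 7 group means with lmFit and eBayes (limma 3.58.1, R 4.3.3), and p-values were Benjamini-Hochberg adjusted over all of them; 8306 genes were represented. Tested on simulated data for day 14 allografts against isografts, the fit called 53 of 100 probe sets given a shift of log2 1, 96 of 100 given a shift of log2 2, and 9 that had none. The members and gene lists were chosen with earlier results of these data known. All members are described, and of each pathway list the 3 called genes with the largest difference at days 14 and 25 are named. The actin covariate was added after the data were seen. The number of arrays limits the precision.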

Additional observations from a re-analysis of the deposited data

Results flagged for a closer look

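Each cathepsin was examined for single arrays far from the rest of their group, in 63 groups of 5 arrays. In 2 of them the gap to the nearest array exceeded 0.71 of the group's range, and chance alone marks about 1 in 20 groups. Ctsc was 9.10 in native replicate 3, whereas the other native arrays lay between 8.64 and 8.74 (gap 0.779 of the range). Ctss was 12.17 in day 14 isograft replicate 4, whereas the other arrays of that group lay between 12.54 and 12.68 (gap 0.712 of the range).

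The allograft-isograft difference of Ctsc changed between days 4 and 14 by 1.53 (SE 0.34, adjusted p = 0.00386, limma interaction), with allografts above isografts in all arrays at day 14 and overlapping at day 4.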

How the results depend on the processing

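No called cathepsin changed direction except Ctse. When each gene's probe sets were averaged, Ctse reversed against native trachea, to 0.027 in day 4 allografts, -0.098 in day 14 isografts and -0.197 in day 25 isografts, since its second probe set does not follow the first. The day 4 count of 1 gene between allografts and isografts became 0 with a log2 minimum of 7 (Ctse was then not tested), with arrays centred on reference genes, with only the compared groups fitted and with averaged probe sets, and ranged from 0 to 1 when 1 array was left out. With only the compared groups fitted, the day 25 count between allografts and isografts was 2 in place of 4, and that of day 25 isografts against native trachea was 5 in place of 8, in fits with fewer samples. Replicate numbers are shared between groups, but the median correlation of same-number pairs was 0.039, against 0.007 for other pairs, and 7 of 35 arrays correlated best with their own number, so the samples were taken to share only a number. Same-number pairs of day 4 allografts with day 4 isografts had r of 0.045 to 0.467 (median 0.303, other pairs -0.029), and those of day 4 isografts with day 14 allografts 0.047 to 0.269 (median 0.243, other pairs -0.134), a hint of pairing there from the data, though in no pair of groups did all exceed 0.1 (the highest minimum was 0.096). With a replicate block, 135 of 135 results kept their side of the threshold and the day 14 count between allografts and isografts stayed at 3. Leaving out each array in turn kept the side of the threshold in 1482 of 1530 results, lost it in 43 and gained it in 5. Array weights changed 7 of 135 results, quantile normalization 3, median centring 4 and the actin covariate 5, and without the 2 arrays that stood apart 6 calls were lost. Fitting only the compared groups lost 10 calls and gained 1. Averaging probe sets lost 4, gained 2 and reversed 3, and centring on reference genes lost 3 and gained 2. For results that changed otherwise, the cause was not tested. Low signal limits Ctse, whose representative probe set ran from 4.93 to 7.19 against a filter of 5.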
